A study of Mus musculus with 8 samples.

Results

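The 33 genes described here encode enzymes and regulators of cholesterol, fatty acid and ceramide synthesis. They were chosen by gene symbol, matched to the Ensembl identifiers of the count table through the GENCODE mouse annotation, and followed across 4 subsets of mouse medullary thymic epithelial cells (mTECs). All 33 were listed among the 25466 genes of the table, and 32 passed the filter on low counts that left 17006 genes for testing. They fall into a sterol branch of 13 genes, a fatty acid branch of 10 (9 tested), a ceramide branch of 7 and 3 regulators. The exception was Elovl3, a fatty acid elongase, which had 0 to 18 counts per library and was not tested.

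RNA was sequenced from wild-type BL6N6 mice used at 4 to 6 weeks of age. From the thymus, CD45-depleted stromal cells were sorted as mTECs by surface staining for EpCAM, CDR1, MHC class II and Tspan8, a tetraspanin that serves as an example of a tissue-restricted antigen. The groups were Tspan8neg MHCIIlo, Tspan8neg MHCIIhi, Tspan8pos MHCIIhi and Tspan8pos MHCIIlo, with 2 biological replicates each, and the comparisons ask how expression differs with Tspan8 at each MHCII level and with MHCII at each Tspan8 level. No group carried a transgene or treatment. Whether a library came from 1 mouse or a pool is not given in the sources used here. Each sort gate holds a mixture of cells, and in such bulk samples fewer cells of a type and less RNA per cell cannot be told apart.

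Cholesterol is built from acetyl-CoA through mevalonate, isoprenoids, squalene and lanosterol. When membrane sterol is low, the factor SREBP2 (gene Srebf2) is released from the endoplasmic reticulum and raises transcription of the pathway enzymes, while the INSIG proteins hold it back. Fatty acids start from malonyl-CoA made by acetyl-CoA carboxylase (Acaca), are assembled by fatty acid synthase (Fasn), lengthened by the ELOVL elongases and desaturated by the SCD enzymes. Ceramides join such an acyl chain to a sphingoid base, and the ceramide synthases (CERS) differ in the chain length they accept. In cornifying epithelium, very long and ultra-long acyl chains are built into the ceramides of the water barrier, and some mTECs express a cornified programme that resembles that of keratinocytes.

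Estimated counts per library totalled 1941518 to 7783841, so that the deepest library had 4.01 times the count of the shallowest, Tspan8pos MHCIIlo replicate 1. Levels are given as CPM, counts scaled to the library total after TMM normalisation, and levels of different genes are compared only as RPKM, the CPM per kilobase of the longest coding transcript. A gene was called where the edgeR quasi-likelihood test across all 8 libraries gave an adjusted p under 0.01 and a log2 fold change of at least 1 in size. The p-values measure the spread between biological replicates as the labels name them, and no exact permutation test was run because groups of 2 cannot reach a p of 0.05. Log2 fold changes are given with ± the standard error of that fit. Groups of 2 libraries often did not overlap. With Tspan8, 33.3% of all genes tested were higher without overlap and 34.5% lower in MHCIIlo, and 35.8% and 38.0% in MHCIIhi. With MHCII the shares were 35.1% and 37.0% in Tspan8neg and 30.3% and 27.9% in Tspan8pos. Statements below that subsets did not overlap are thus descriptions only. The 5 epithelial markers were Epcam, Krt5, Krt14, Krt8 and Aire. Epcam had 367 to 1081 CPM and Krt8 1694 to 4233 CPM in the 8 libraries, and Aire was highest in Tspan8neg MHCIIhi (2658 and 2476 CPM). The list did not move as one with Tspan8. In Tspan8pos, 2 of the 5 were called higher and 2 lower within MHCIIlo, and 1 higher and 1 lower within MHCIIhi.

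Several marker lists differed between the subsets. The 5 markers of cornified mTECs (Krt10, Ivl, Krt1, Lor and Flg) summed to 57.3 to 138 CPM in the Tspan8neg libraries and 2656 to 3144 CPM in the Tspan8pos libraries, and 5 of 5 were called higher in Tspan8pos at both MHCII levels. The 4 Tuft mTEC markers (Dclk1, Trpm5, Avil and Pou2f3) summed to 837 to 1129.6 CPM in Tspan8neg MHCIIlo, 127 to 139 in Tspan8neg MHCIIhi, 874 to 1001 in Tspan8pos MHCIIhi and 5267 to 5419 in Tspan8pos MHCIIlo, with 4 of 4 called higher in Tspan8pos at both levels. Because both lists moved with the Tspan8 contrasts described here, their part in those results was not tested. The 7 thymocyte markers summed to 355 and 993 CPM in the Tspan8neg MHCIIlo replicates, against 64.7 to 201 CPM in the other 6 libraries, so that replicate 2 of Tspan8neg MHCIIlo stood apart. In Tspan8pos MHCIIlo 3 of the 7 were called lower than in Tspan8neg MHCIIlo.

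Markers of lipid-storing cells were low. The 4 adipocyte markers summed to 0.683 to 20.4 CPM, with Adipoq at 0 in all 4 MHCIIlo libraries and at 5.41 and 7.95 CPM in Tspan8neg MHCIIhi, and the 4 sebocyte markers summed to 1.18 to 3.98 CPM. Summed over the 8 libraries by list, B cell markers (3 genes) had 6.05 to 33.5 CPM, myeloid markers (5) 46.9 to 439 CPM, fibroblast markers (4) 57.7 to 170.1 CPM, endothelial markers (3) 13.0 to 106 CPM and cTEC markers (5) 67.1 to 254 CPM. In the Tspan8 comparisons, members of the B cell, fibroblast, endothelial and cTEC lists were called lower in Tspan8pos or not called, and 1 myeloid marker was called higher and 1 lower at each MHCII level.

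Promoter sequences of 6 members are shown. Mvd and Idi1 are the sterol genes called with MHCII, and Msmo1 is a sterol gene called higher with Tspan8 in MHCIIlo. Hmgcs1, a sterol gene not called in any comparison, holds the sterol motif named below. Elovl4 and Cers3 are the fatty acid and ceramide genes with the largest differences. The sequences come from RefSeq on GRCm38.p6 and span 250 bases before to 50 bases after the transcript start. Capitals mark the letters CCAAT (or ATTGG, its other strand) and, in Hmgcs1, TCACNCCAC, a sterol regulatory element like motif. The windows are chr8:122443373-122443672 (minus strand) for Mvd, chr13:8885356-8885655 (plus strand) for Idi1, chr13:119690101-119690400 (plus strand) for Hmgcs1, chr8:64733529-64733828 (minus strand) for Msmo1, chr9:83806256-83806555 (minus strand) for Elovl4 and chr7:66743254-66743553 (plus strand) for Cers3.
Mvd: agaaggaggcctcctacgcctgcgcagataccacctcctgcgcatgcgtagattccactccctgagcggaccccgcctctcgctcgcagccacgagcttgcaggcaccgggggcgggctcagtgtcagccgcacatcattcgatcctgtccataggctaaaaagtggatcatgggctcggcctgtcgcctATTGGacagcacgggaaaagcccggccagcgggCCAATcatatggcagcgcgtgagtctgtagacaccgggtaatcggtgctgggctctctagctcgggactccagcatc
Idi1: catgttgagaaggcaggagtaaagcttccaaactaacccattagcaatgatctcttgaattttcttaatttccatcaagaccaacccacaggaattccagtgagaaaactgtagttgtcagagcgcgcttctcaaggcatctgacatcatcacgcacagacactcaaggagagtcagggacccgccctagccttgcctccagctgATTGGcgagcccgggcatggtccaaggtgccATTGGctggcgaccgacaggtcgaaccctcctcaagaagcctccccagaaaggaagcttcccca
Hmgcs1: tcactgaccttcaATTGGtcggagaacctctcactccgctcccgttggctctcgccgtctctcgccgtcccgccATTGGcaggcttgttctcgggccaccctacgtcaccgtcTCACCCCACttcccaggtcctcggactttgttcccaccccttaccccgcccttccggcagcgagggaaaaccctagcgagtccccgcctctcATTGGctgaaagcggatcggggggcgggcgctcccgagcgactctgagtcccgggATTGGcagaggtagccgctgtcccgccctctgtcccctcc
Msmo1: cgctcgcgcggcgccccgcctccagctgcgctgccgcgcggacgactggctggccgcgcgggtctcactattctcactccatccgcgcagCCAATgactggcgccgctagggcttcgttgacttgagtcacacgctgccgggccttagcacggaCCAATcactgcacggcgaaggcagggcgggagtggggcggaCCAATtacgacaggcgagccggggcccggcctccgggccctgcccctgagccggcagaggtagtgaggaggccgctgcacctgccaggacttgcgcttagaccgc
Elovl4: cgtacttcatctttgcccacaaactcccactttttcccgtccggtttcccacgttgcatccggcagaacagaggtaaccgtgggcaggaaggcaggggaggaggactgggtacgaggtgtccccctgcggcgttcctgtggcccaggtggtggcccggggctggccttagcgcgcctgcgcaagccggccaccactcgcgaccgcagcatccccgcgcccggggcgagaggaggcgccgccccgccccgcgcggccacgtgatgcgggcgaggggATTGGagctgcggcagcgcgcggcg
Cers3: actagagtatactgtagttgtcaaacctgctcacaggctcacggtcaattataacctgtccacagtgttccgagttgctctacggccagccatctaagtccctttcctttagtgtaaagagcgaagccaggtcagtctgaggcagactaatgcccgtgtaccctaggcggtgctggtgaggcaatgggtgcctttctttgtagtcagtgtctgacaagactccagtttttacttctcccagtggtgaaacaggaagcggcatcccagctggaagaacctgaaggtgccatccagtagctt

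Of the 33 members, 27 had a promoter entry, and Fdps, Fdft1, Sqle, Scd1, Scd2 and Elovl3 had none. CCAAT was found on either strand for 10 of 10 sterol genes, 4 of 7 fatty acid genes, 2 of 7 ceramide genes and 3 of 3 regulators, against 41.1% of the 27025 genes with an entry. A gene was counted where at least 1 of its windows held the letters. Dhcr7, Elovl1 and Srebf1 also had windows without them. Counting from the transcript start to the first base of the match, it lay 60 and 27 bases upstream in Mvd, 45 and 14 bases upstream in Idi1, and 160, 96 and 55 bases upstream in Msmo1. The Cers3 window held no CCAAT, and that of Elovl4 held 1, located 25 bases downstream of the start. TCACNCCAC occurred in Hmgcs1 alone, 137 bases upstream, against 1.44% of all genes. Sterol promoters had a median GC content of 63.2%, fatty acid promoters 64.2% and ceramide promoters 67.3%, compared with 52.7% over all windows. These matches describe the letters of the windows and carry no measurement of binding.

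With Tspan8, the genes of very long chain fatty acid and ceramide synthesis Elovl1, Elovl4, Elovl7 and Cers3 were higher at both MHCII levels, and none of the members was called lower. In MHCIIlo, 11 of 32 tested members were called higher in Tspan8pos (34.4%), where 12.1% of all genes tested were called higher, 9.34% lower and 21.4% in either direction. In MHCIIhi, 13 of 32 were called higher (40.6%), against 11.0% higher, 7.45% lower and 18.5% in either direction over all genes. DESeq2 also called no member lower in either contrast, and at an unadjusted edgeR p under 0.05 there were 2 lower in MHCIIlo and 3 in MHCIIhi. The share of all genes at that unadjusted threshold was not determined, here or for such counts below. Called in both contrasts were 8 members (Acaca, Scd1, Elovl1, Elovl4, Elovl7, Cers3, Degs2 and Ugcg), with 3 more in MHCIIlo (Lss, Msmo1 and Sptlc2) and 5 more in MHCIIhi (Mvk, Sc5d, Dhcr7, Elovl6 and Cers6).

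By branch, 2 of 13 sterol genes, 5 of 9 fatty acid genes and 4 of 7 ceramide genes were called higher in Tspan8pos MHCIIlo, and 3, 6 and 4 in Tspan8pos MHCIIhi. The shares were 15.4%, 55.6% and 57.1% in MHCIIlo, where 12.1% of all genes were called higher, and 23.1%, 66.7% and 57.1% in MHCIIhi, where 11.0% were. With the fold limit, the sterol share in MHCIIlo was thus close to that over all genes. The median log2 fold change in MHCIIlo was 0.39 for sterol, 1.47 for fatty acid and 1.05 for ceramide genes, beside -0.03 over all genes tested. In MHCIIhi the medians were 0.40, 1.39 and 1.43, beside -0.03. Without the fold limit, 13 of 32 members were higher and 0 lower in MHCIIlo, against 15.8% of all genes higher and 27.9% in either direction. In MHCIIhi 16 were higher and 1, Fdps, lower, against 15.0% higher and 25.0% in either direction. Of the sterol genes, 30.8% were higher in MHCIIlo and 38.5% in MHCIIhi without that limit, above the shares over all genes. These are descriptions of lists chosen with earlier results known, and the difference between branches was not tested.

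Summed levels were also higher in Tspan8pos. The ceramide branch summed to 263 and 223 CPM in Tspan8neg MHCIIlo, 190.1 and 204 in Tspan8neg MHCIIhi, 506 and 419 in Tspan8pos MHCIIhi and 479.9 and 459 in Tspan8pos MHCIIlo, a ratio of Tspan8pos to Tspan8neg means of 1.93 in MHCIIlo and 2.35 in MHCIIhi. Fatty acid genes reached 808 and 893 CPM in Tspan8neg MHCIIlo, 907 and 964 in Tspan8neg MHCIIhi, 1676 and 1572 in Tspan8pos MHCIIhi and 1382 and 1367 in Tspan8pos MHCIIlo, with ratios of 1.62 and 1.74. Such sums weight abundant genes most. Scd1 held 12.7 to 19.5% of the fatty acid sum in the Tspan8neg libraries and 22.2 to 28.5% in the Tspan8pos libraries. Scd2 held 35.6 to 38.9% and 16.3 to 24.3%, and Fasn 16.4 to 24.7% and 7.4 to 15.2%. The sterol branch had 411 and 479 CPM in Tspan8neg MHCIIlo, 628 and 659.6 in Tspan8neg MHCIIhi, 865 and 841 in Tspan8pos MHCIIhi and 651 and 695 in Tspan8pos MHCIIlo, with ratios of 1.51 and 1.32. In all 3 branches both Tspan8pos libraries lay above both Tspan8neg libraries of the same MHCII level.

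**Figure D1:**
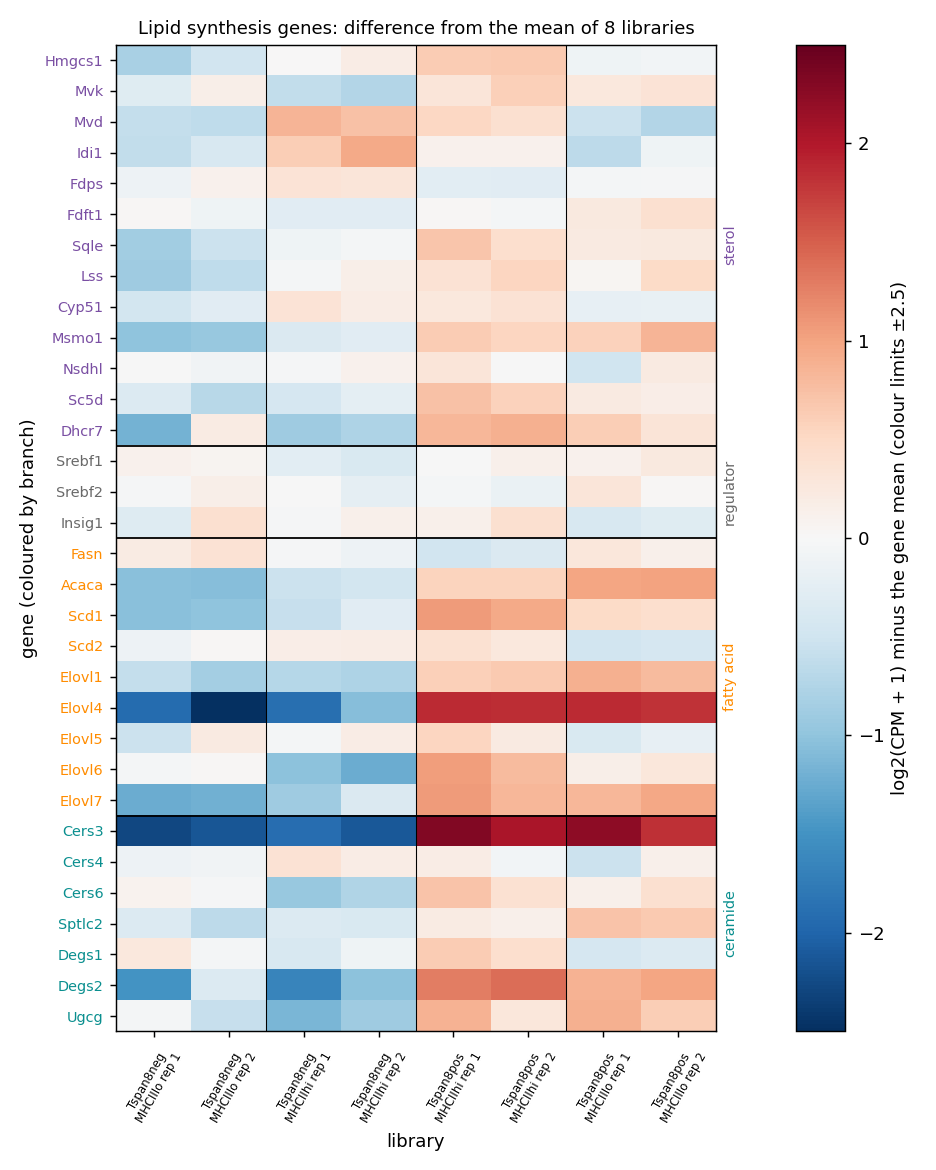
Each row is 1 of the 32 tested members and each column 1 of the 8 libraries, and colour gives log2(CPM + 1) minus the gene's mean over the libraries. Elovl4 and Cers3 separate the 4 Tspan8pos libraries (red) from the 4 Tspan8neg libraries (blue) most strongly, while Mvd and Idi1 are red in Tspan8neg MHCIIhi.

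Among ceramide genes, Cers3, the synthase for ultra-long acyl chains of the epidermal barrier, differed most. It had 1.40 and 1.65 CPM in Tspan8neg MHCIIlo, 2.08 and 1.67 in Tspan8neg MHCIIhi, 56.8 and 46.7 in Tspan8pos MHCIIhi and 53.9 and 40.3 in Tspan8pos MHCIIlo. The 4 Tspan8pos libraries lay far above the 4 Tspan8neg libraries, while the MHCII levels overlapped within Tspan8pos. The log2 fold change for Tspan8 was 4.88 ± 0.31 (edgeR adjusted p = 7.0e-07) in MHCIIlo and 4.80 ± 0.27 (edgeR adjusted p = 4.7e-07) in MHCIIhi, or 29.5-fold and 27.9-fold. In the Tspan8neg libraries it rested on 5 to 13 counts.

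Degs2, which desaturates and hydroxylates dihydroceramide, had 5.90 and 14.4 CPM in Tspan8neg MHCIIlo, 5.20 and 8.59 in Tspan8neg MHCIIhi, 46.2 and 50.4 in Tspan8pos MHCIIhi and 34.6 and 37.5 in Tspan8pos MHCIIlo. All 4 Tspan8pos libraries were above all Tspan8neg libraries, of which Tspan8neg MHCIIlo replicate 2 was the highest. The log2 fold change was 1.81 ± 0.33 (edgeR adjusted p = 0.0013) in MHCIIlo and 2.76 ± 0.32 (edgeR adjusted p = 6.2e-05) in MHCIIhi. Without that replicate the MHCIIlo value was 2.62, and without Tspan8pos MHCIIlo replicate 2 it was 1.75 and no longer called (edgeR adjusted p = 0.021). Evl overlaps Degs2 on the opposite strand, and 13.4% of its 54-base stretches also occur in transcripts of other genes.

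Ugcg, which makes glucosylceramide from ceramide, had 73.3 and 50.0 CPM in Tspan8neg MHCIIlo, 33.5 and 40.0 in Tspan8neg MHCIIhi, 139 and 92.2 in Tspan8pos MHCIIhi and 141 and 116 in Tspan8pos MHCIIlo. Tspan8pos was higher than Tspan8neg at both MHCII levels with no overlap, although replicates spread widely in Tspan8pos MHCIIhi. Its log2 fold change was 1.05 ± 0.23 (edgeR adjusted p = 0.0042) in MHCIIlo and 1.65 ± 0.23 (edgeR adjusted p = 0.00025) in MHCIIhi. The MHCIIlo call was lost without Tspan8neg MHCIIlo replicate 2 or either Tspan8pos MHCIIlo replicate, with values of 0.79 to 1.20 (edgeR adjusted p 0.017 to 0.036).

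Sptlc2, a subunit of the serine palmitoyltransferase that starts sphingolipid synthesis, had 77.0 and 62.0 CPM in Tspan8neg MHCIIlo, 76.9 and 75.1 in Tspan8neg MHCIIhi, 113 and 107 in Tspan8pos MHCIIhi and 162 and 155 in Tspan8pos MHCIIlo. It was highest in Tspan8pos MHCIIlo and lay above Tspan8neg in both MHCII gates. The log2 fold change was 1.19 ± 0.15 (edgeR adjusted p = 7.8e-05) in MHCIIlo, and 0.53 ± 0.14 (edgeR adjusted p = 0.012) in MHCIIhi, which was not called. Cers6, a synthase that prefers shorter acyl chains, showed another pattern with 52.8 and 48.3 CPM in Tspan8neg MHCIIlo, 25.4 and 29.2 in Tspan8neg MHCIIhi, 82.4 and 65.0 in Tspan8pos MHCIIhi and 54.4 and 65.8 in Tspan8pos MHCIIlo. It was lowest in Tspan8neg MHCIIhi, and Tspan8pos exceeded Tspan8neg by a log2 fold change of 1.43 ± 0.17 (edgeR adjusted p = 8.5e-05) in MHCIIhi, while in MHCIIlo the gene was not called.

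Degs1, the widely expressed dihydroceramide desaturase, was not called with Tspan8. Its levels were 36.0 and 28.8 CPM in Tspan8neg MHCIIlo, 22.5 and 27.6 in Tspan8neg MHCIIhi, 47.0 and 40.2 in Tspan8pos MHCIIhi and 22.0 and 23.3 in Tspan8pos MHCIIlo. In MHCIIhi the Tspan8pos libraries were higher (log2 fold change 0.79 ± 0.19, edgeR adjusted p = 0.0062, under the fold limit), whereas in MHCIIlo both Tspan8pos libraries were lower than both Tspan8neg libraries. Per length, the ratio of Degs2 to Degs1 in RPKM was 0.194 to 0.592 in the Tspan8neg libraries and 1.16 to 1.90 in the Tspan8pos libraries. Degs2 stood below Degs1 in every Tspan8neg library and above it in every Tspan8pos library. Cers4 was not called in any comparison and had 12.6 to 24.5 CPM.

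**Figure D2:**
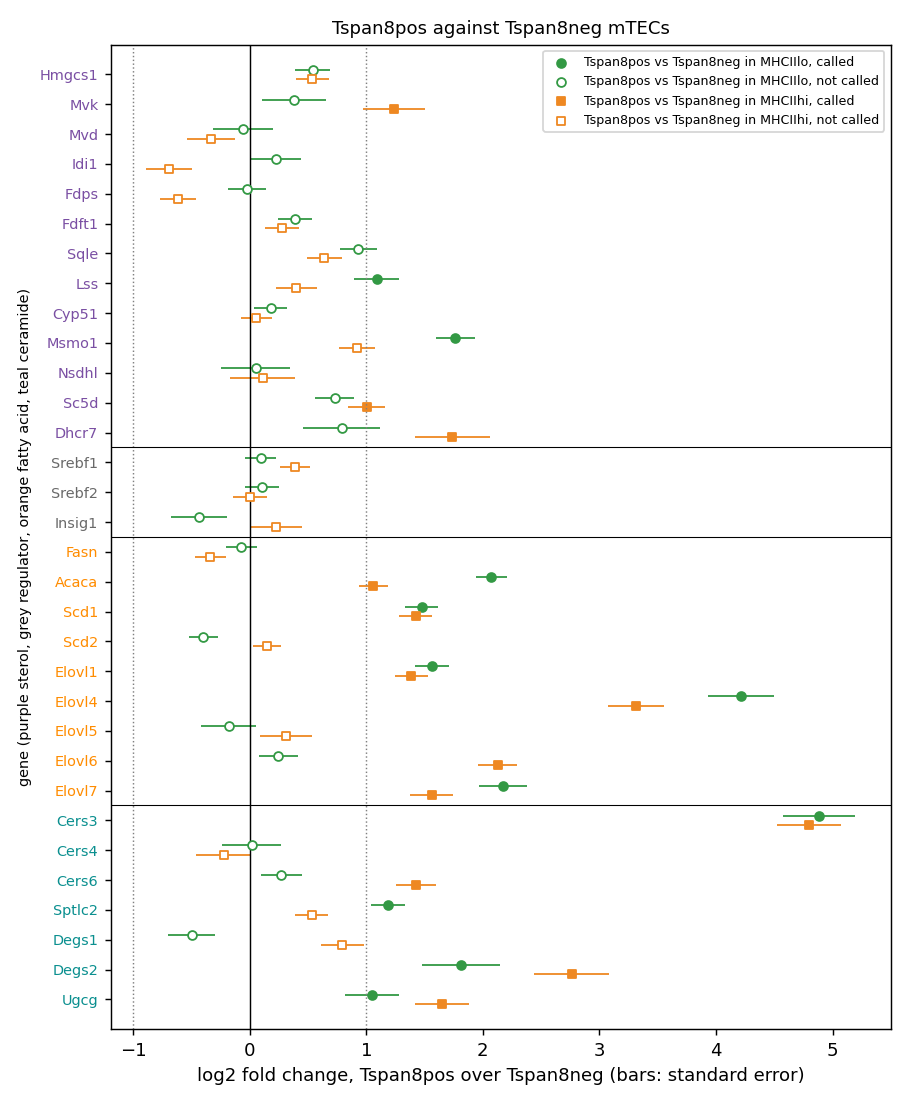
Log2 fold change of Tspan8pos over Tspan8neg (horizontal axis) for each tested member in MHCIIlo (circles) and MHCIIhi (squares), with standard errors as bars, filled where called and dotted lines at a log2 fold change of 1 in size. Cers3 and Elovl4 lie farthest right, and most sterol genes lie between the dotted lines.

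In the fatty acid branch, Elovl4, the elongase that makes ultra-long chains, had 8.71 and 5.42 CPM in Tspan8neg MHCIIlo, 8.94 and 16.7 in Tspan8neg MHCIIhi, 133 and 130.4 in Tspan8pos MHCIIhi and 132 and 128 in Tspan8pos MHCIIlo. Every Tspan8pos library lay above every Tspan8neg library, and the 4 Tspan8pos values lay close together. Its log2 fold change was 4.21 ± 0.28 (edgeR adjusted p = 9.2e-07) in MHCIIlo and 3.31 ± 0.24 (edgeR adjusted p = 2.0e-06) in MHCIIhi, or 18.6-fold and 9.94-fold.

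Elovl7, an elongase of long-chain fatty acids, had 18.5 and 19.1 CPM in Tspan8neg MHCIIlo, 23.9 and 34.9 in Tspan8neg MHCIIhi, 95.2 and 80.3 in Tspan8pos MHCIIhi and 80.8 and 88.5 in Tspan8pos MHCIIlo. The Tspan8pos libraries were again all above the Tspan8neg libraries, and the log2 fold change was 2.17 ± 0.20 (edgeR adjusted p = 1.1e-05) at MHCIIlo against 1.56 ± 0.19 (edgeR adjusted p = 7.0e-05) at MHCIIhi. Elovl1, which elongates saturated chains to very long length, had 51.1 and 42.7 CPM in Tspan8neg MHCIIlo, 47.0 and 44.7 in Tspan8neg MHCIIhi, 118 and 122 in Tspan8pos MHCIIhi and 143 and 135 in Tspan8pos MHCIIlo. It was called at both levels, by a log2 fold change of 1.57 ± 0.15 (edgeR adjusted p = 1.0e-05) in MHCIIlo and 1.39 ± 0.14 (edgeR adjusted p = 2.1e-05) in MHCIIhi, and its MHCII groups overlapped within Tspan8neg.

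Acaca, the acetyl-CoA carboxylase that commits carbon to fatty acid synthesis, had 41.0 and 40.3 CPM in Tspan8neg MHCIIlo, 58.2 and 61.9 in Tspan8neg MHCIIhi, 125 and 126 in Tspan8pos MHCIIhi and 169 and 173 in Tspan8pos MHCIIlo. The 4 subsets did not overlap, and the order ran from Tspan8neg MHCIIlo through Tspan8neg MHCIIhi and Tspan8pos MHCIIhi to Tspan8pos MHCIIlo. The log2 fold change for Tspan8 was 2.07 ± 0.13 (edgeR adjusted p = 8.0e-07) in MHCIIlo and 1.06 ± 0.13 (edgeR adjusted p = 7.0e-05) in MHCIIhi. The MHCIIhi value lay close to the fold limit, and without Tspan8neg MHCIIhi replicate 1 it was 0.94 (edgeR adjusted p = 0.0036) and not called, as it was with DESeq2, with DESeq2 size factors and with libraries thinned to equal depth. Of its 54-base stretches, 51.7% also occur in the processed pseudogene Gm5182, so that the absolute level is uncertain.

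Scd1, a stearoyl-CoA desaturase, had 109.8 and 113 CPM in Tspan8neg MHCIIlo, 152 and 188 in Tspan8neg MHCIIhi, 477 and 438 in Tspan8pos MHCIIhi and 317 and 304 in Tspan8pos MHCIIlo. Tspan8pos was above Tspan8neg at each MHCII level, by a log2 fold change of 1.47 ± 0.14 (edgeR adjusted p = 1.4e-05) in MHCIIlo and 1.42 ± 0.14 (edgeR adjusted p = 1.7e-05) in MHCIIhi. Its paralogue Scd2 had 288 and 318 CPM in Tspan8neg MHCIIlo, 352 and 355 in Tspan8neg MHCIIhi, 407 and 377 in Tspan8pos MHCIIhi and 225 and 234 in Tspan8pos MHCIIlo. Both Tspan8pos MHCIIlo libraries had less Scd2 than both Tspan8neg MHCIIlo libraries, and the gene was not called at either MHCII level. In RPKM the Scd1 to Scd2 ratio was 0.403 to 0.599 in the Tspan8neg libraries and 1.31 to 1.59 in the Tspan8pos libraries. The paralogues share 4.23% (Scd1) and 3.50% (Scd2) of their 54-base stretches with other genes.

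Elovl6, which lengthens palmitate to stearate, had 38.8 and 41.5 CPM in Tspan8neg MHCIIlo, 19.3 and 16.5 in Tspan8neg MHCIIhi, 84.6 and 71.1 in Tspan8pos MHCIIhi and 45.1 and 49.4 in Tspan8pos MHCIIlo. It was lowest in Tspan8neg MHCIIhi and highest in Tspan8pos MHCIIhi, with the MHCIIlo subsets in between. Tspan8pos exceeded Tspan8neg by a log2 fold change of 2.13 ± 0.17 (edgeR adjusted p = 3.4e-06) in MHCIIhi, or 4.37-fold, and was not called in MHCIIlo. Fasn, fatty acid synthase itself, was not called for Tspan8 and had 199 and 220.2 CPM in Tspan8neg MHCIIlo, 169 and 158 in Tspan8neg MHCIIhi, 124 and 135 in Tspan8pos MHCIIhi and 211 and 189 in Tspan8pos MHCIIlo. Its lowest libraries were those of Tspan8pos MHCIIhi. Elovl5, an elongase of polyunsaturated chains, was not called in any comparison and had 52.8 to 112 CPM.

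Per length, the make-up of the elongase and ceramide synthase families differed with Tspan8. Elovl4 supplied 2.54 to 7.25% of the summed RPKM of Elovl1 to Elovl7 in the Tspan8neg libraries and 23.4 to 25.5% in the Tspan8pos libraries. Elovl5 supplied 30.7 to 45.9% and 12.3 to 21.3%, respectively. Elovl1 was a major share throughout, at 32.3 to 45.9%. Among Cers1 to Cers6, Cers3 went from 0.673 to 1.26% in Tspan8neg to 18.4 to 26.4% in Tspan8pos, Cers2 had 60.2 to 69.2% and 38.0 to 47.6%, and Cers1 was at or near 0. For Elovl4, Elovl5, Cers3 and Cers2 the Tspan8pos and Tspan8neg ranges did not overlap. The shares are descriptions without a test, and a share falls when another member rises. Cers2 itself had 43.6 and 42.9 RPKM in Tspan8neg MHCIIlo and 30.3 and 32.1 in Tspan8pos MHCIIlo, a difference that was not called. In MHCIIhi it had 32.1 and 27.8 RPKM in Tspan8neg and 25.2 and 28.7 in Tspan8pos, which overlap.

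**Figure D3:**
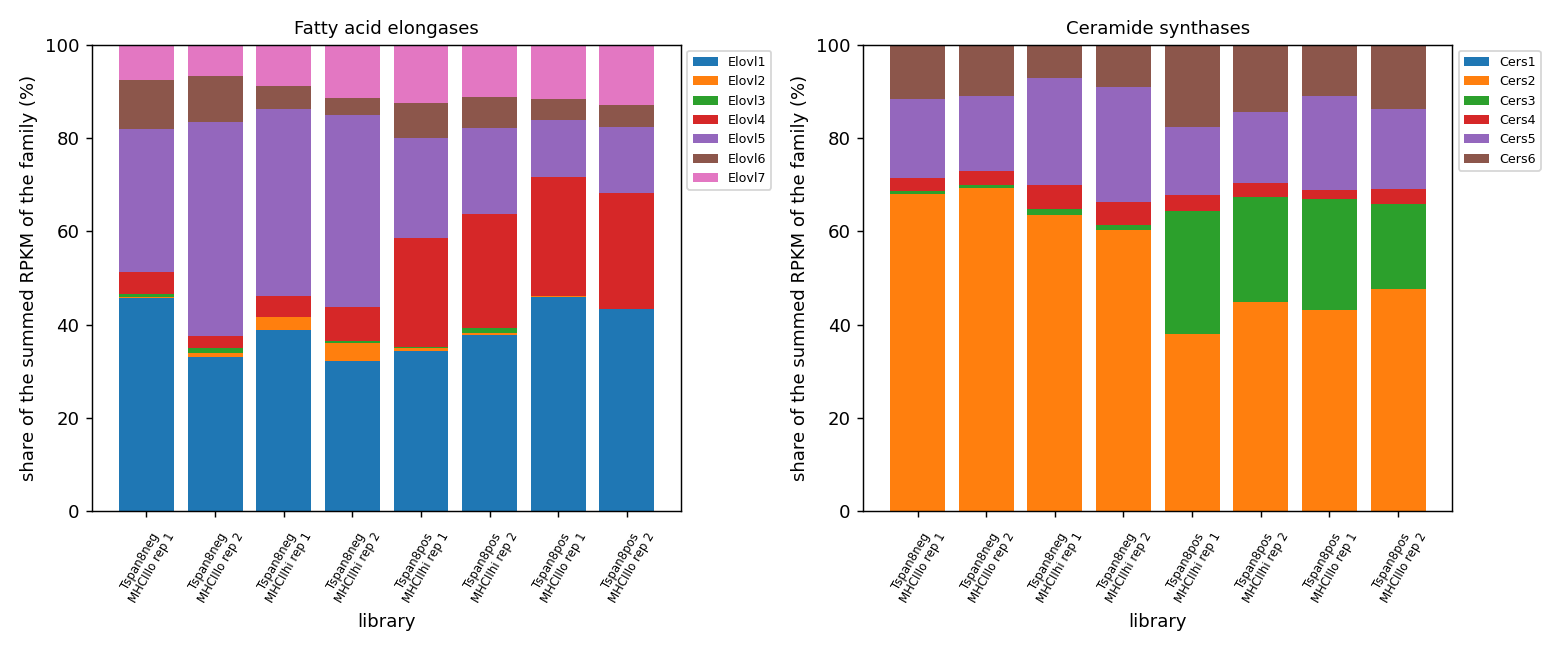
Stacked bars give each gene's share (%) of the summed RPKM of the fatty acid elongases (left) and ceramide synthases (right) in each of the 8 libraries. Elovl4 (red, left) and Cers3 (green, right) take up 23.4 to 25.5% and 18.4 to 26.4% in the Tspan8pos libraries.

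The sterol genes called with Tspan8 act after squalene in the pathway, except Mvk. Msmo1, the methylsterol monooxygenase, had 18.5 and 19.6 CPM in Tspan8neg MHCIIlo, 29.7 and 31.7 in Tspan8neg MHCIIhi, 60.3 and 56.1 in Tspan8pos MHCIIhi and 58.3 and 69.8 in Tspan8pos MHCIIlo. Tspan8pos was above Tspan8neg at both levels, by a log2 fold change of 1.76 ± 0.17 (edgeR adjusted p = 1.3e-05) in MHCIIlo and 0.92 ± 0.15 (edgeR adjusted p = 0.00078) in MHCIIhi, the latter under the fold limit. Lss, lanosterol synthase, had 22.2 and 26.6 CPM in Tspan8neg MHCIIlo, 40.6 and 46.4 in Tspan8neg MHCIIhi, 54 and 61 in Tspan8pos MHCIIhi and 43.4 and 58.3 in Tspan8pos MHCIIlo. In MHCIIlo it was called higher by a log2 fold change of 1.09 ± 0.19 (edgeR adjusted p = 0.0011), but not without Tspan8neg MHCIIlo replicate 1 or Tspan8pos MHCIIlo replicate 2, where the values were 0.83 to 0.97 (edgeR adjusted p 0.0032 to 0.032), nor with libraries thinned to equal depth (0.95).

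Dhcr7, the sterol reductase of the last step to cholesterol, had 14.0 and 38.2 CPM in Tspan8neg MHCIIlo, 17.5 and 19.0 in Tspan8neg MHCIIhi, 59.7 and 62.2 in Tspan8pos MHCIIhi and 51.1 and 42.0 in Tspan8pos MHCIIlo. The Tspan8neg MHCIIlo replicates differed more from each other than any other pair, with replicate 2 the higher. In MHCIIhi the log2 fold change was 1.74 ± 0.32 (edgeR adjusted p = 0.0015), and leaving out any of the 4 libraries of that comparison gave 1.60 to 1.79 (edgeR adjusted p 0.011 to 0.022). Sc5d, lathosterol oxidase, had 37.9 and 29.7 CPM in Tspan8neg MHCIIlo, 36.2 and 40.8 in Tspan8neg MHCIIhi, 81.5 and 73.3 in Tspan8pos MHCIIhi and 57.2 and 54.9 in Tspan8pos MHCIIlo. Both Tspan8pos gates lay above both Tspan8neg gates, by a log2 fold change of 0.73 ± 0.17 (edgeR adjusted p = 0.0056) in MHCIIlo, which was not called, and 1.00 ± 0.16 (edgeR adjusted p = 0.00052) in MHCIIhi. That call sat at the fold limit, and without Tspan8neg MHCIIhi replicate 1 or Tspan8pos MHCIIhi replicate 1 the values were 0.85 to 0.95 (edgeR adjusted p 0.0074 to 0.017). It was also lost with DESeq2, DESeq2 size factors, either other filter, the replicate number as a block and thinned libraries, with values of 0.94 to 1.00.

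Mvk, mevalonate kinase, was low, with 10.1 and 14.1 CPM in Tspan8neg MHCIIlo, 7.90 and 7.18 in Tspan8neg MHCIIhi, 15.7 and 19.7 in Tspan8pos MHCIIhi and 15.4 and 16.2 in Tspan8pos MHCIIlo. Tspan8neg MHCIIhi was the lowest subset, and Tspan8pos exceeded it by a log2 fold change of 1.24 ± 0.27 (edgeR adjusted p = 0.0039). Leaving out any of the 4 MHCIIhi libraries ended the call, as did DESeq2 and thinned libraries, the values without a library being 1.07 to 1.41 (edgeR adjusted p 0.011 to 0.061). Sqle, squalene epoxidase, was higher in Tspan8pos at both levels but under the fold limit, by a log2 fold change of 0.93 ± 0.16 (edgeR adjusted p = 0.00086) in MHCIIlo and 0.64 ± 0.15 (edgeR adjusted p = 0.0067) in MHCIIhi. Without Tspan8neg MHCIIlo replicate 2 the MHCIIlo value of Sqle was 1.11 and called (edgeR adjusted p = 0.00027). In the opposite direction, Fdps, farnesyl diphosphate synthase, was lower in Tspan8pos MHCIIhi, with a log2 fold change of -0.62 ± 0.15 (edgeR adjusted p = 0.0086) that was also under the fold limit. Its counts are uncertain, since 85.5% of its 54-base stretches occur in other genes, among them Gm43738, which overlaps it on the same strand, and processed pseudogenes.

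With MHCII, few members passed the fold limit, and those called higher were Mvd and Idi1, which act before squalene in the sterol pathway. Without the fold limit, Sqle, Lss, Cyp51 and Msmo1, which act from squalene on, were also higher in Tspan8neg MHCIIhi, as given below. Steps before and after squalene were not compared by a test. In Tspan8neg, 2 of 32 members were called higher in MHCIIhi and 1 lower, where 13.1% of all genes were called higher, 9.67% lower and 22.7% in either direction. In Tspan8pos, 1 of 32 was called higher and 0 lower, where 4.59% were called higher, 2.62% lower and 7.21% in either direction. By DESeq2, 0 members were called in Tspan8pos, and at an unadjusted p under 0.05 there were 10 higher and 4 lower by edgeR. Without a share over all genes, these unadjusted counts cannot be set against a background. In both comparisons a smaller share of the members than of all genes was called.

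Mvd, mevalonate diphosphate decarboxylase, had 8.99 and 8.72 CPM in Tspan8neg MHCIIlo, 26.0 and 24.1 in Tspan8neg MHCIIhi, 20.7 and 18.9 in Tspan8pos MHCIIhi and 9.34 and 8.05 in Tspan8pos MHCIIlo. Both MHCIIhi subsets lay above both MHCIIlo subsets. The log2 fold change was 1.50 ± 0.23 (edgeR adjusted p = 0.00038) in Tspan8neg and 1.22 ± 0.24 (edgeR adjusted p = 0.0048) in Tspan8pos. The latter call was lost under DESeq2 (adjusted p = 0.018) and without any 1 library of Tspan8neg MHCIIhi, Tspan8pos MHCIIhi or Tspan8pos MHCIIlo, with values of 1.08 to 1.32 (edgeR adjusted p 0.014 to 0.092). The count of members called in Tspan8pos was then 0.

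Idi1, isopentenyl diphosphate isomerase, had 21.9 and 25.7 CPM in Tspan8neg MHCIIlo, 53.0 and 66.5 in Tspan8neg MHCIIhi, 37.0 and 37.2 in Tspan8pos MHCIIhi and 21.4 and 31.8 in Tspan8pos MHCIIlo. Tspan8neg MHCIIhi was the highest subset, and both of its libraries lay above all others. The log2 fold change for MHCII was 1.33 ± 0.21 (edgeR adjusted p = 0.00041) in Tspan8neg, while in Tspan8pos the gene was not called. Both Tspan8pos MHCIIhi libraries lay below both Tspan8neg MHCIIhi libraries, a difference that was not called. Of its 54-base stretches, 30.3% occur in other genes.

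Without the fold limit the sterol branch had the highest count in Tspan8neg. At an edgeR adjusted p under 0.01, 7 of 13 sterol genes (53.8%) were higher in Tspan8neg MHCIIhi than in Tspan8neg MHCIIlo and 0 lower, against 15.5% higher and 13.9% lower over all genes. Beside Mvd and Idi1 these were Hmgcs1, the synthase that makes HMG-CoA (log2 fold change 0.74 ± 0.15, edgeR adjusted p = 0.0021), Lss (log2 fold change 0.83 ± 0.19, edgeR adjusted p = 0.0048), Msmo1 (log2 fold change 0.69 ± 0.17, edgeR adjusted p = 0.0073), Sqle (log2 fold change 0.63 ± 0.16, edgeR adjusted p = 0.0081) and Cyp51, the lanosterol demethylase (log2 fold change 0.64 ± 0.14, edgeR adjusted p = 0.0034). For the fatty acid branch, 2 of 9 were higher, Scd1 (log2 fold change 0.61 ± 0.14, edgeR adjusted p = 0.0050) and Acaca (log2 fold change 0.56 ± 0.13, edgeR adjusted p = 0.0058), and 1 was lower, Elovl6. Of the ceramide branch, 0 of 7 were higher, also at an unadjusted edgeR or DESeq2 p under 0.05, and Cers6 was lower (log2 fold change -0.88 ± 0.18, edgeR adjusted p = 0.0023).

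The median log2 fold change for MHCII in Tspan8neg was 0.63 for sterol, 0.22 for fatty acid and -0.36 for ceramide genes, beside -0.04 over all genes. In Tspan8pos the medians were 0.33, 0.04 and 0.17, beside 0.01. Marker lists moved with MHCII as well. In Tspan8neg MHCIIhi, Aire, both tested adipocyte markers (Adipoq and Cidec), 3 of 5 myeloid, 2 of 5 cTEC and 2 of 4 fibroblast markers were called higher, and 5 of 7 thymocyte, 4 of 4 Tuft, 2 of 3 endothelial and the other 2 fibroblast markers were called lower. The myeloid markers summed to 46.9 to 108 CPM in Tspan8neg MHCIIlo and 352 to 413 CPM in Tspan8neg MHCIIhi. In Tspan8pos MHCIIhi, 1 myeloid and 1 adipocyte marker were called higher and 4 of 4 Tuft and 2 of 3 endothelial markers lower. Of the 5 epithelial markers, 2 were called lower in Tspan8neg MHCIIhi and 1 was called higher in Tspan8pos MHCIIhi. The part of these markers in the MHCII differences was not tested.

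Hmgcs1, not called in any comparison, passed the adjusted p threshold with MHCII and missed it with Tspan8. Its levels were 66.6 and 83.7 CPM in Tspan8neg MHCIIlo, 118 and 132 in Tspan8neg MHCIIhi, 181 and 183 in Tspan8pos MHCIIhi and 108 and 111 in Tspan8pos MHCIIlo. No 2 subsets overlapped, Tspan8pos MHCIIhi was the highest, and the log2 fold change for MHCII was 0.74 ± 0.15 in Tspan8neg and 0.74 ± 0.15 (edgeR adjusted p = 0.0054) in Tspan8pos. For Tspan8 the values were 0.54 ± 0.15 (edgeR adjusted p = 0.014) in MHCIIlo and 0.54 ± 0.14 (edgeR adjusted p = 0.012) in MHCIIhi. Gm48342 overlaps it on the opposite strand, and 13.4% of its 54-base stretches occur in other genes.

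Elovl6 was the fatty acid gene called for MHCII, at -1.17 ± 0.17 (edgeR adjusted p = 0.00030), meaning lower in Tspan8neg MHCIIhi than in Tspan8neg MHCIIlo. Without Tspan8neg MHCIIhi replicate 2 the value was -0.96 (edgeR adjusted p = 0.012) and the count of members called in Tspan8neg was 2. Without Tspan8neg MHCIIhi replicate 1 that count was 5, since Lss (1.01) and Elovl4 (1.35) were then called. In Tspan8pos, 4 of 32 members were higher and 1 lower without the fold limit, against 5.47% and 3.59% of all genes. Beside Mvd these were higher values for Degs1 (log2 fold change 0.93 ± 0.20, edgeR adjusted p = 0.0078), Scd2 (log2 fold change 0.77 ± 0.12, edgeR adjusted p = 0.0016) and Hmgcs1, and a lower value for Fasn (log2 fold change -0.62 ± 0.13, edgeR adjusted p = 0.0088).

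**Figure D4:**
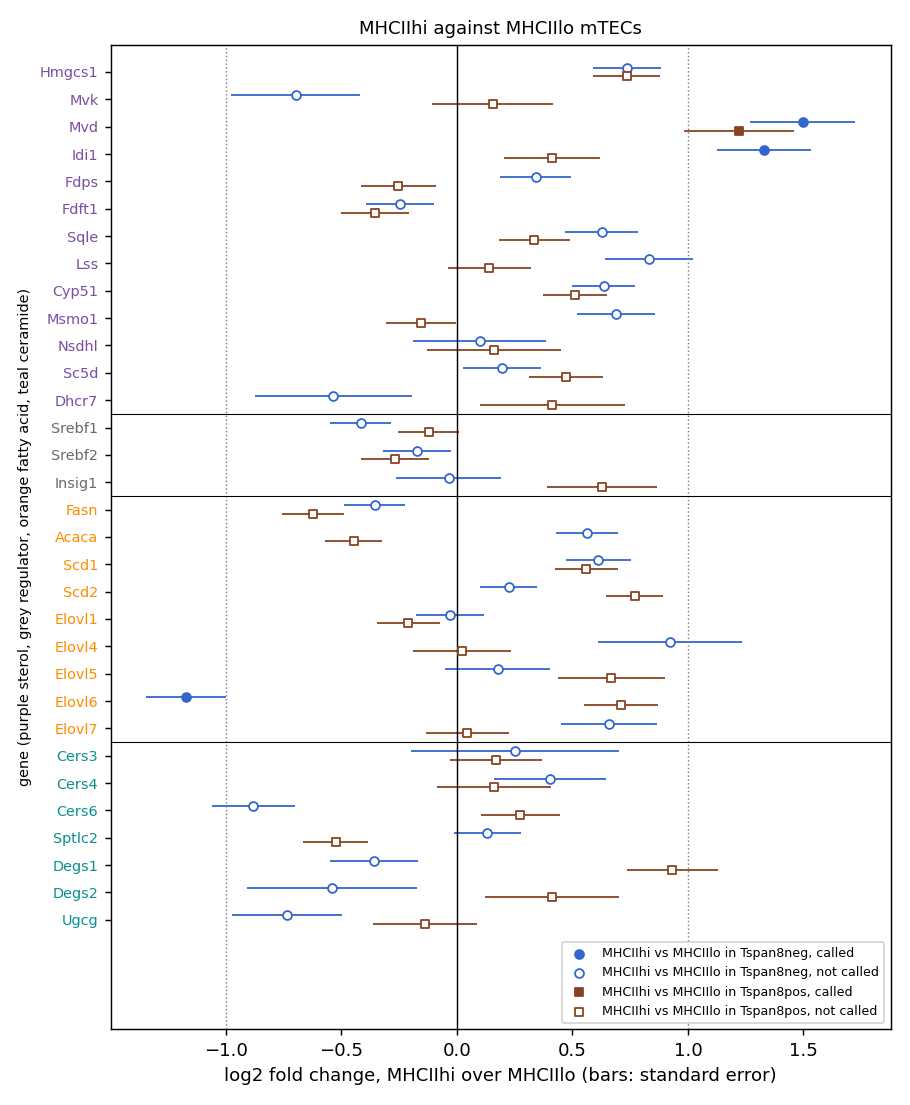
Log2 fold change of MHCIIhi over MHCIIlo (horizontal axis) for each tested member in Tspan8neg (circles) and Tspan8pos (squares), with standard errors as bars, filled where called and dotted lines at a log2 fold change of 1 in size. Mvd lies right of the line in both, Idi1 in Tspan8neg, and Elovl6 lies left of it in Tspan8neg.

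Whether the Tspan8 difference itself depended on MHCII was tested as an interaction, the log2 fold change for Tspan8 in MHCIIlo minus that in MHCIIhi. Of 32 members, 1 was called with a higher value in MHCIIlo and 1 with a lower value, against 2.36% and 2.24% of all genes and 4.60% in either direction. Elovl6 had -1.88 ± 0.23 (edgeR adjusted p = 0.00083), its Tspan8 difference being smaller in MHCIIlo. Acaca had 1.01 ± 0.18 (edgeR adjusted p = 0.0057), its Tspan8 difference being larger in MHCIIlo. The Elovl6 call held without each of the 8 libraries, whereas the Acaca call was lost without any 1 of them, with values of 0.98 to 1.12 (edgeR adjusted p 0.0049 to 0.037).

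Degs1 (log2 fold change -1.29 ± 0.27, edgeR adjusted p = 0.012) and Cers6 (log2 fold change -1.15 ± 0.25, edgeR adjusted p = 0.013) had interactions in the direction of Elovl6 that did not reach the threshold. Without Tspan8neg MHCIIlo replicate 2 both were called, at -1.45 and -1.22, and the count of members with a called interaction was 3. Msmo1 had 0.84 ± 0.23 (edgeR adjusted p = 0.035) in the direction of Acaca.

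**Figure D5:**
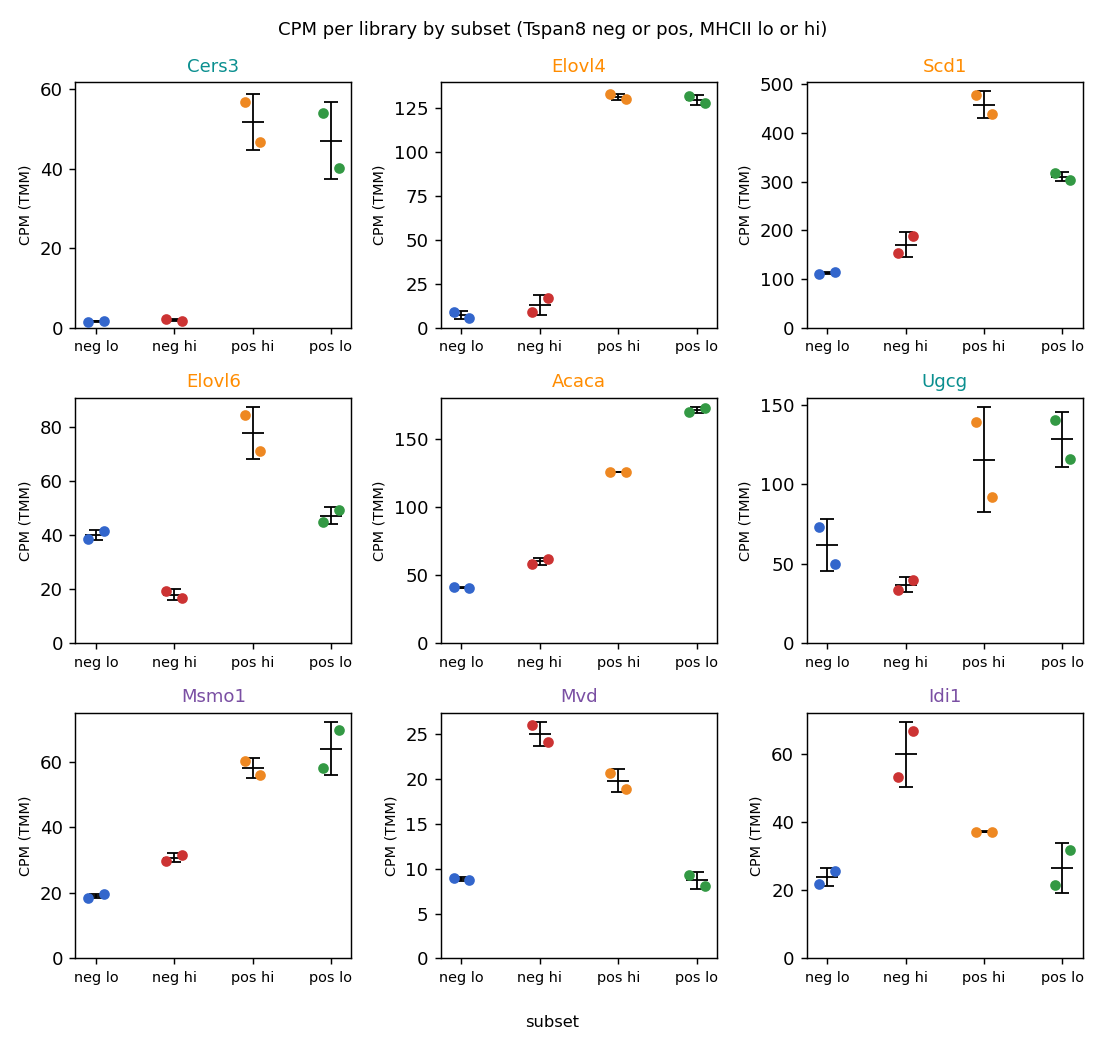
CPM in each library (coloured points, 2 per subset) of 9 members, with the mean and SD of each subset in black and every vertical axis starting at 0. Cers3, Elovl4 and Scd1 are higher in both Tspan8pos subsets, Elovl6 is lowest in Tspan8neg MHCIIhi, and Mvd is higher in both MHCIIhi subsets.

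None of the 3 regulators was called. Srebf2, which encodes SREBP2, had 187 to 269 CPM over the 8 libraries, Srebf1, which encodes SREBP1, 97.7 to 152 CPM, and Insig1, which retains the SREBP complex, 25.3 to 45.1 CPM. The edgeR and DESeq2 counts of called regulators were 0 in each of the 4 comparisons. At an unadjusted edgeR p under 0.05 there was 1 regulator higher in Tspan8pos MHCIIhi, 0 in MHCIIlo, 1 lower in MHCIIhi within Tspan8neg and 1 higher within Tspan8pos. The Insig1 replicates of Tspan8neg MHCIIlo, at 26.7 and 44.8 CPM, spanned the values of all but 2 of the other 6 libraries. mRNA levels of these genes do not measure the processing of SREBP proteins.

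Other genes of the same pathways were examined as 4 wider lists. Of 27 tested ceramide and barrier lipid genes, 14 were called higher in Tspan8pos within MHCIIlo and 17 within MHCIIhi, against 12.1% and 11.0% of all genes (51.9% and 63.0% of the list), with 0 lower in either (1 and 0 lower at an unadjusted edgeR p under 0.05, and 0 by DESeq2). Abca12, which loads glucosylceramide into keratinocyte lamellar granules, had 2.53 and 3.77 CPM in Tspan8neg MHCIIlo, 3.12 and 6.28 in Tspan8neg MHCIIhi, 113 and 76.8 in Tspan8pos MHCIIhi and 117 and 105 in Tspan8pos MHCIIlo. The Tspan8pos libraries were all far above the Tspan8neg libraries, by a log2 fold change of 5.09 ± 0.33 (edgeR adjusted p = 8.2e-07) in MHCIIlo and 4.25 ± 0.29 (edgeR adjusted p = 1.2e-06) in MHCIIhi. The MHCIIhi value was 4.84 without Tspan8neg MHCIIhi replicate 2.

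Asah2, a ceramidase, was higher by a log2 fold change of 2.44 ± 0.21 (edgeR adjusted p = 5.7e-06) in MHCIIlo and by a log2 fold change of 2.60 ± 0.19 (edgeR adjusted p = 2.0e-06) in MHCIIhi. Abhd5, a lipase cofactor needed for acylceramide synthesis, was higher by a log2 fold change of 2.13 ± 0.18 (edgeR adjusted p = 4.9e-06) in MHCIIlo and by a log2 fold change of 2.17 ± 0.17 (edgeR adjusted p = 3.6e-06) in MHCIIhi. For MHCII, 1 of the 27 was called higher in Tspan8neg and 0 in Tspan8pos, against 13.1% and 4.59% of all genes. In Tspan8pos 4 were higher and 3 lower at an unadjusted edgeR p under 0.05 and DESeq2 called 0.

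Of 22 tested other fatty acid genes, 6 were called higher and 3 lower in Tspan8pos within MHCIIlo, or 27.3% and 13.6% against 12.1% and 9.34% of all genes. Within MHCIIhi 4 were called higher and 1 lower, or 18.2% and 4.55% against 11.0% and 7.45%. Acsl1, an acyl-CoA synthetase, had 22.5 and 25.5 CPM in Tspan8neg MHCIIlo, 37.4 and 43.2 in Tspan8neg MHCIIhi, 323 and 303 in Tspan8pos MHCIIhi and 298 and 329 in Tspan8pos MHCIIlo, with no overlap between Tspan8pos and Tspan8neg and a difference of 3.71 ± 0.16 (edgeR adjusted p = 1.0e-07) in MHCIIlo and 2.95 ± 0.15 (edgeR adjusted p = 2.5e-07) in MHCIIhi. Slc27a4, a fatty acid transporter of epidermis, was higher by a log2 fold change of 2.02 ± 0.15 (edgeR adjusted p = 1.8e-06) in MHCIIlo and by a log2 fold change of 2.30 ± 0.14 (edgeR adjusted p = 7.0e-07) in MHCIIhi. Me1, the malic enzyme that supplies NADPH for lipogenesis, had 25.8 and 30.2 CPM in Tspan8neg MHCIIlo, 164 and 184 in Tspan8neg MHCIIhi, 382 and 345 in Tspan8pos MHCIIhi and 297 and 328 in Tspan8pos MHCIIlo. Tspan8neg MHCIIlo was the lowest subset by far, and Tspan8neg MHCIIhi exceeded it by a log2 fold change of 2.63 ± 0.15 (edgeR adjusted p = 1.0e-06).

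Thrsp, a lipogenic regulator, had 3.37 and 5.42 CPM in Tspan8neg MHCIIlo, 34.5 and 39.0 in Tspan8neg MHCIIhi, 25.3 and 24.2 in Tspan8pos MHCIIhi and 13.2 and 12.1 in Tspan8pos MHCIIlo. It was highest in Tspan8neg MHCIIhi and exceeded Tspan8neg MHCIIlo by a log2 fold change of 3.04 ± 0.26 (edgeR adjusted p = 7.4e-06). Within Tspan8neg, 6 of the 22 genes were called higher in MHCIIhi and 2 lower, against 13.1% and 9.67% of all genes. Within Tspan8pos 0 were called, against 7.21% of all genes in either direction (7 higher and 3 lower at an unadjusted edgeR p under 0.05, and 0 by DESeq2).

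Of 11 other sterol synthesis and uptake genes, 2 were called higher and 1 lower in Tspan8pos within MHCIIlo and 0 within MHCIIhi (2 higher and 1 lower at an unadjusted edgeR p under 0.05, and 0 by DESeq2). The MHCIIlo shares, 18.2% and 9.09%, were near the 12.1% and 9.34% over all genes. In MHCIIhi 18.5% of all genes were called in either direction. Ebp, a sterol isomerase, was higher in Tspan8pos MHCIIlo by a log2 fold change of 1.31 ± 0.22 (edgeR adjusted p = 0.00069). Lbr, a nuclear envelope protein with sterol reductase activity, was lower, with a log2 fold change of -1.11 ± 0.27 (edgeR adjusted p = 0.0063). It had 52.2 and 92.2 CPM in Tspan8neg MHCIIlo, replicate 2 being the higher. Without that replicate its value was -0.62 (edgeR adjusted p = 0.045) and not called. A fit of the 4 MHCIIlo libraries alone also ended that call, as did leaving out any 1 of the Tspan8pos libraries, with values of -1.42 to -0.94 (edgeR adjusted p 0.011 to 0.049).

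Of 10 genes of sterol sensing and efflux, 1 was called higher and 1 lower in Tspan8pos within MHCIIlo and 2 higher within MHCIIhi, against 12.1% higher and 9.34% lower of all genes in MHCIIlo and 11.0% higher in MHCIIhi. The MHCIIlo counts were at the level of all genes. Abca1, the cholesterol efflux transporter, had 90.4 and 71.0 CPM in Tspan8neg MHCIIlo, 26.8 and 23.8 in Tspan8neg MHCIIhi, 91.0 and 71.5 in Tspan8pos MHCIIhi and 124 and 119 in Tspan8pos MHCIIlo. It was lowest in Tspan8neg MHCIIhi, with a log2 fold change of -1.67 ± 0.18 (edgeR adjusted p = 3.9e-05) against Tspan8neg MHCIIlo, and Tspan8pos exceeded Tspan8neg in MHCIIhi by a log2 fold change of 1.69 ± 0.18 (edgeR adjusted p = 3.0e-05). Insig2 was higher in Tspan8pos by a log2 fold change of 1.58 ± 0.17 (edgeR adjusted p = 3.4e-05) in MHCIIlo and 1.05 ± 0.16 (edgeR adjusted p = 0.00045) in MHCIIhi, the latter 0.91 and not called without Tspan8neg MHCIIhi replicate 2, and 0.99 and not called with DESeq2 or its size factors. Soat1, which esterifies cholesterol, was lower in Tspan8pos MHCIIlo, with a log2 fold change of -1.07 ± 0.19 (edgeR adjusted p = 0.0011), a call lost without Tspan8pos MHCIIlo replicate 2 (edgeR adjusted p = 0.016). Nr1h3, which encodes the sterol sensor LXRα, was higher in Tspan8neg MHCIIhi than in Tspan8neg MHCIIlo by a log2 fold change of 2.26 ± 0.41 (edgeR adjusted p = 0.0011).

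In all, 18 of 32 tested members were called in at least 1 of the 4 comparisons, 7 of the sterol, 6 of the fatty acid and 5 of the ceramide branch. This was 56.2% of the members, against 39.5% of all genes tested. The 14 not called in any were Hmgcs1, Fdps, Fdft1, Sqle, Cyp51, Nsdhl, Fasn, Scd2, Elovl5, Cers4, Degs1, Srebf1, Srebf2 and Insig1. Among these, Fdft1, squalene synthase, had 37.8 to 61.7 CPM and Nsdhl, a sterol dehydrogenase, 8.79 to 15.9 CPM. Ctsb overlaps Fdft1 on the opposite strand, and 29.7% of the 54-base stretches of Fdft1 occur in other genes. Elovl3, overlapped by Pitx3 on the opposite strand, had 0 counts in both Tspan8pos MHCIIlo libraries and in 1 Tspan8neg MHCIIhi library, which at these totals allows up to 1.55, 0.385 and 0.659 CPM by counting error alone.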

How the data were processed

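RNA of 8 sorted mTEC libraries, 4 subsets with 2 biological replicates each, was sequenced as 54-base single reads. The authors quantified the reads with Salmon 1.8.0 against the Gencode vM10 mouse transcriptome (mm10) and deposited estimated counts per gene, already rounded to whole numbers, and per the labels DESeq2 1.30.0 and FastQC were also used. The sources used here describe library preparation in 2 ways (pre-amplified cDNA with tagmentation, or a stranded mRNA kit), so use of strand in counting is not settled and genes overlapping on opposite strands are uncertain. The estimated counts gave library totals of 1941518 to 7783841, with 0 columns left unmapped. Symbols were matched by Ensembl identifier to GENCODE M21 for 25336 of 25466 genes.

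Testing used edgeR 4.0.16 (R 4.3.3) with filterByExpr, TMM, 1 quasi-likelihood fit of 8 libraries with a mean per subset, and Benjamini-Hochberg adjustment over 17006 genes. Calls required a log2 fold change of at least 1 in size beside an adjusted p below 0.01. The biological coefficient of variation was 15.5%. The script was tested on simulated data with 200 changed genes. Alternatives were DESeq2 1.42.0 (Wald test), its size factors, no filter, at least 10 counts in at least 4 libraries, the replicate number as a block, only the 4 libraries of a contrast, an adjusted p of 0.05, no fold limit, each library left out, and, chosen after seeing the totals, thinning to the smallest total. The limit for a count of 0 was 3 counts.

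All members were accounted for, with full values for those called in a comparison, and from each wider list at most 4 genes, the called ones with the smallest adjusted p, were named. Some genes that this rule would name are not reported here. The members and all lists were chosen with earlier results of these data known. Promoters came from RefSeq (GRCm38.p6). Shared sequence was measured as the share of a gene's 54-base stretches that occur in transcripts of another gene.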

Additional observations from a re-analysis of the deposited data

Results flagged for a closer look

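The Tspan8 difference of 4 genes differed between the MHCII levels in the interaction test, calculated as the log2 fold change in MHCIIlo minus that in MHCIIhi. Elovl6 had an interaction of -1.88 ± 0.23 (edgeR adjusted p = 0.00083) and Acaca one of 1.01 ± 0.18 (edgeR adjusted p = 0.0057). Of the wider fatty acid list, Me1 had 2.42 ± 0.20 (edgeR adjusted p = 0.00018) and Thrsp 2.06 ± 0.35 (edgeR adjusted p = 0.0042). The Elovl6 and Me1 calls held under the 14 alternatives run for the interaction, whereas the Acaca call was lost in 8 of them, each with 1 library left out. The Thrsp call was lost in 7, with values of 1.98 to 2.21 (edgeR adjusted p 0.014 to 0.030) on leaving out any library but those of Tspan8neg MHCIIlo and of 1.95 (edgeR adjusted p = 0.021) in libraries thinned to equal depth.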

How the results depend on the processing

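Of 30 called pairs of a member and a comparison, 20 kept their call and direction under all alternatives and 25 under all that did not leave out a library, and no direction reversed. Leaving out 1 library in turn gave 8 to 12 members called with Tspan8 in MHCIIlo, 9 to 13 in MHCIIhi, 2 to 5 with MHCII in Tspan8neg, 0 to 1 in Tspan8pos and 1 to 3 in the interaction. With no fold limit, 11 members were called with MHCII in Tspan8neg (7 sterol, 3 fatty acid, 1 ceramide), where 29.4% of all genes were. In Tspan8pos 5 were called (2 sterol, 2 fatty acid, 1 ceramide), where 9.07% of all genes were. With Tspan8, 4 and 6 sterol genes were called in MHCIIlo and MHCIIhi, where 27.9% and 25.0% of all genes were. The interaction count was 4 at an adjusted p of 0.05 and 4 with no filter on low counts. Over all genes, the fit with no filter called 1267 of 25466, against 783 of 17006 in the main fit. With DESeq2, 1 sterol gene was called with Tspan8 in MHCIIhi, and 0 members, sterol genes included, were called with MHCII in Tspan8pos. Over all genes DESeq2 called 2780 and 1201 in these comparisons, against 3143 and 1226 in the main fit. With all libraries thinned to equal depth, which was added after seeing the data, 5 members were called with MHCII in Tspan8neg. Over all genes, thinned libraries gave 3164 of 14573 called there, against 3866 of 17006 in the main fit. Fits with a library left out also moved the counts over all genes, as described below. The cause of these shifts was not tested.

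Between subsets, the deviations of same-numbered libraries correlated by -0.0028 to 0.089. With so few libraries a group, these low values cannot decide whether the replicate numbers pair the samples. Over all genes tested, the replicate block raised the number of genes called in each comparison, for the interaction from 783 to 1236. Whether shared replicate variation lay behind this was not tested. Among the members, the interaction count with the replicate block was 4, Cers6 and Degs1 being added. The Sc5d call in MHCIIhi ended with that block at a log2 fold change of 1.00, just under the limit.

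With 2 libraries a group, and 5 to 13 counts of Cers3 in each Tspan8neg library, precision is limited, and counting intervals cover counting error only. Leaving out a library leaves its group with 1, whose spread is taken to equal that of the other groups. In each comparison most such fits also called fewer genes over all genes tested. A call lost on leaving out a library is thus not particular to the members.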
